A study of Danio rerio with 4 samples.

Results

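The livers of fasting zebrafish larvae that received only the vehicle, DMSO, were examined here by the rank of their transcripts, with no comparison to treated larvae. These are 2 of the 4 libraries of the experiment, chosen by their label as vehicle samples, and each is replicate 1 or replicate 2 of that group. Larvae of the AB genotype label were given no exogenous food, were kept in vehicle for 48 h from 4 dpf and were collected at 6 dpf, and each replicate was a pool of the livers of 30 larvae. The other 2 libraries, from larvae that received the small molecule Lipofermata, entered no value below. Pooling means that a replicate value is an average over many livers, and neither the labels nor the methods say whether the 2 pools came from separate clutches, so the spread between them may be technical.

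The liver is built largely of hepatocytes, which make most proteins of the blood plasma, store and release sugar, break down amino acids, export lipid as lipoprotein particles and turn foreign and endogenous compounds into forms that can be excreted. A zebrafish larva lives on maternal yolk until that is used up, and without food it then draws on its own reserves, with the liver supplying glucose and handling the fatty acids that reach it. Many zebrafish genes exist as a pair of copies, usually named a and b, kept from a duplication of the genome in the ancestor of teleost fish.

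Polyadenylated RNA was sequenced and the reads were counted per gene. Values are given in CPM, the counts of a gene in every 1000000 counts of its library. CPM was not divided by transcript length, so an order by CPM is an order by reads and not by molecules, and a long transcript stands higher than a short one with as many copies. In these bulk libraries, fewer cells of a type and less RNA per cell cannot be told apart.

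Replicate 1 held 19368695 counts and replicate 2 held 14997821, so that 1 CPM stood for 19.37 and 14.998 counts. Of 32058 rows in the table, 20569 had a count in either replicate, and 12541 reached 1 CPM in both, the level used here for a detected gene. Even numbers made up 74.7% of the values between 1 and 50 counts in replicate 1 (6176 of 8268 genes) and 74.4% in replicate 2 (6666 of 8954 genes). Counts of that kind are not independent single reads, so the 95% Wilson intervals on shares given below are too narrow and cover counting error only. The difference between the replicates is the more useful error, and it shrank with the level of the gene. The median ratio of the higher to the lower replicate was 1.32-fold for the 6990 genes between 1 and 10 CPM, 1.18-fold for the 5318 genes between 10 and 100 CPM, 1.13-fold for the 805 genes between 100 and 1000 CPM, and 1.105-fold for the 132 genes above that. In CPM the median gene stood 1.14-fold higher in replicate 1, a log2 shift of -0.19 for replicate 2 against replicate 1, and 68.7% of the 14584 genes with at least 20 counts over both replicates were higher in replicate 1. After TMM scaling, which removes such a shift, the share was 51%. The ratios by level given above were not scaled in this way, so they include the shift as well as the error of single genes.

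A few genes held a large part of the RNA. The 10 genes with the highest mean CPM took 23.9% of the counts in replicate 1 (95% interval 23.93 to 23.97) and 25.3% in replicate 2 (25.3 to 25.3), or 24.6% ± 0.966 (SD, n = 2). The top 100 took 53.8% and 55.9%, and the top 1000 took 80.3% and 82.7%. In replicate 1 the 75 most abundant genes held 50% of all counts, and in replicate 2 it was 65 genes. Both replicates had the same 10 genes at the top, shared 29 of their top 30 and 95 of their top 100.

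The most abundant transcript by mean was fetub (ENSDARG00000053973), which encodes fetuin B, a protease inhibitor that the liver secretes into the plasma. It stood at 41259 CPM in replicate 1 and 52191 CPM in replicate 2 (46725 ± 7730, SD, n = 2). Next came apoa1b, which encodes the main protein of high-density lipoprotein, at 42066 and 49108 CPM, and mt-co1, a subunit of cytochrome c oxidase encoded in mitochondrial DNA, at 49488 and 38160 CPM. These 3 genes could not be ranked against each other, because mt-co1 was first in replicate 1 and fetub in replicate 2. All 3 stood above every other gene in both replicates.

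Of the 30 genes with the highest mean, 11 encode secreted plasma proteins, 7 belong to the mitochondrial genome, 6 work in sugar or amino acid metabolism and 2 in translation. The remaining 4 were ucp1, fabp10a, hspa8 and hsp90ab1. No gene of the top 30 fell outside the classes used here, and 14 of the top 100 did. Because 44 genes were classed by gene name after their values were seen, these counts depend in part on that choice. Neighbours in this order were mostly not separable. Of the 29 neighbouring pairs in the top 30, only 4 had both replicates of the upper gene above both of the lower gene, and 3 of those lay within the top 10.

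**Figure D1:**
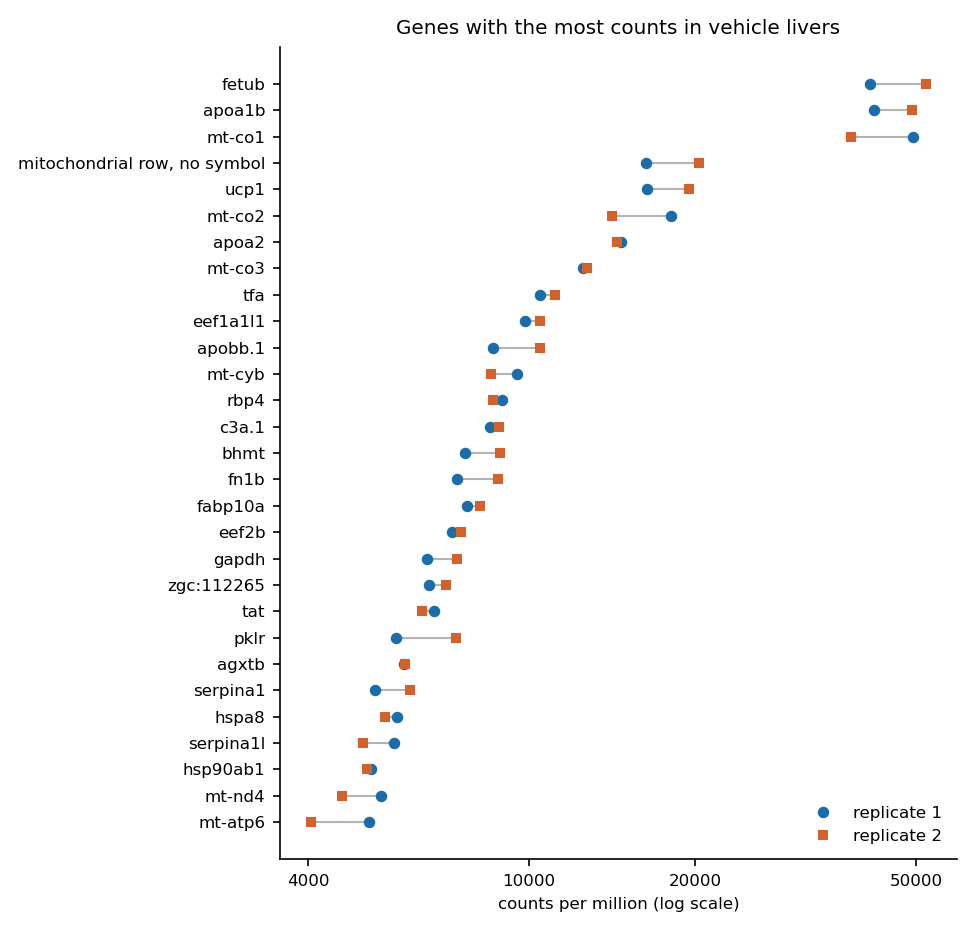
CPM on a log axis for 29 of the 30 genes with the highest mean, with a circle for replicate 1, a square for replicate 2 and a grey line between them. The lines of fetub, apoa1b and mt-co1 overlap, and all 3 lie to the right of every other gene.

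Every row of the table was assigned by its symbol to one of 34 classes in 10 groups or left unclassified, and 44 genes were then corrected by gene name after their values were seen. Secreted plasma proteins were the largest group, with 23.6% of counts in replicate 1 and 25.7% in replicate 2 (24.6% ± 1.498, SD, n = 2). Of their 201 rows 150 were detected, and of all 32058 rows 12541 were. Such counts of detected rows, here and for the classes below, say little about level. The mitochondrial genome followed with 13.02% and 11.4%, and sugar and amino acid metabolism with 11.3% and 12.5%, and these groups changed places between the replicates. Protein synthesis took 7.90% and 8.30%. Nuclear genes for mitochondrial proteins took 3.68% and 3.98%, detoxification 3.56% and 3.64%, lipid metabolism 2.56% and 2.63%, and protein quality control 2.70% and 2.31%. Genes outside all classes took 30.1% and 28.2%, spread so thinly that 642 of them were needed for 50% of that share, against 5 genes for the secreted proteins.

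**Figure D2:**
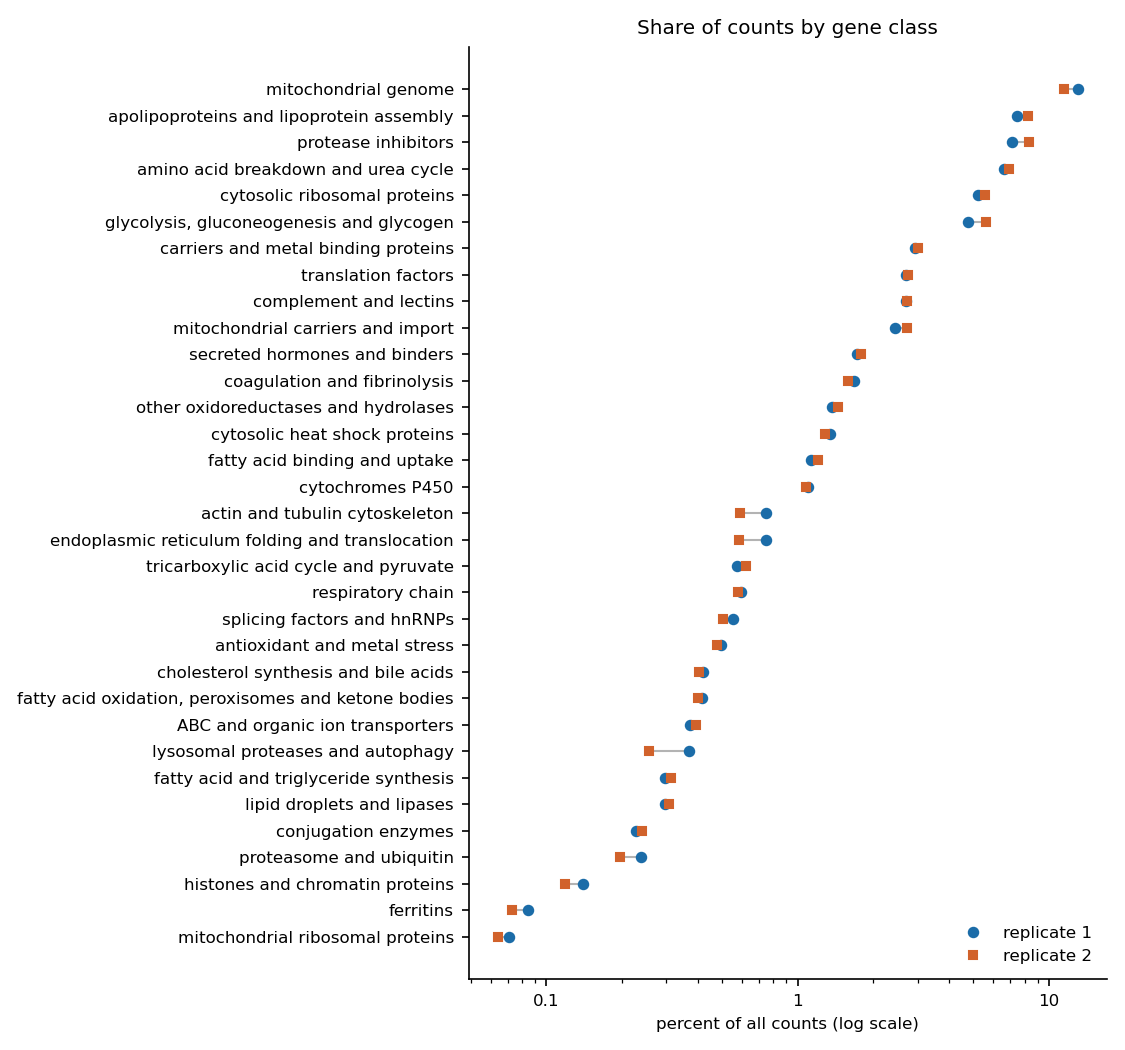
Percent of all counts on a log axis for 33 gene classes, with a circle for replicate 1 and a square for replicate 2, and with vitellogenins left out because they were close to 0. The mitochondrial genome, apolipoproteins and protease inhibitors stand highest, and the widest gap between the replicates relative to the value is that of lysosomal proteases and autophagy genes, at 0.369% and 0.255%.

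Among the secreted proteins, apolipoproteins and lipoprotein assembly genes took 7.44% and 8.27% of all counts, and 21 of 27 were detected. apoa1b alone made up 58.04% of the class. apoa2, also a protein of high-density lipoprotein, stood at 14646 and 14431 CPM, and its replicates differed little. apobb.1, which encodes the scaffold of very-low-density lipoprotein, stood at 8635 and 10486 CPM, and apoc1, a regulator of lipoprotein metabolism, at 3168 and 2548 CPM. The transfer protein that loads lipid onto apolipoprotein B, mttp, was present at 279 and 242 CPM, and lcat, which esterifies cholesterol on high-density lipoprotein, at 343 and 393 CPM. apoeb, a ligand of lipoprotein receptors, stood at 94.4 and 34.2 CPM and was among the genes with the widest gap between replicates, 2.76-fold.

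Protease inhibitors took 7.12% and 8.32%. After fetub, which was 60.5% of the class, came zgc:112265, named itih3b.2 in the gene name table and thus a heavy chain of the inter-alpha-trypsin inhibitor, at 6617 and 7086 CPM. serpina1 stood at 5267 and 6102 CPM and serpina1l at 5707 and 5021 CPM. Both belong to the antitrypsin family, and their order reversed between the replicates. serpinc1, the antithrombin gene, stood at 2012 and 1769 CPM.

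Carriers and metal binding proteins took 2.92% and 3.02% of counts, and 3 genes made up 74.5% of that. tfa, the iron carrier transferrin, stood at 10462 and 11175 CPM, rbp4, the plasma carrier of retinol, at 8938 and 8632 CPM, and cp, the copper protein ceruloplasmin, at 2193 and 2791 CPM. gc, the vitamin D binding protein, was close to cp at 2241 and 2554 CPM. hamp, the hormone hepcidin that limits iron release, stood at 546 and 389 CPM, and ttr, a carrier of thyroid hormone, at 1092 and 1149 CPM.

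Complement and lectin genes took 2.70% and 2.71%, the closest match between replicates among the large classes. c3a.1, a gene for the central complement component, stood at 8498 and 8836 CPM and made up 32.02% of the class, followed by c3a.3 at 2562 and 2638 CPM and c3b.1 at 2271 and 2691 CPM. c9, a component of the pore that complement forms, stood at 2164 and 2213 CPM. Coagulation and fibrinolysis genes took 1.67% and 1.58%. The fibrinogen chain genes fga (3476 and 3059 CPM), fgg (3192 and 3014 CPM) and fgb (2002 and 1538 CPM) were all higher in replicate 1, while plg, which encodes plasminogen, was higher in replicate 2 at 3132 and 3358 CPM. f2, the prothrombin gene, stood at 1225 and 1191 CPM.

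Secreted hormones and binders took 1.73% and 1.78%. fn1b, a fibronectin gene, made up 46.2% of them at 7422 and 8786 CPM. igfbp1a and igfbp1b, which encode proteins that bind insulin-like growth factors and in mammals are made by the liver in fasting, stood at 3130 and 3010 CPM and at 3013 and 2706 CPM. The ranges of the 2 genes touched, since the higher replicate of igfbp1b lay above the lower replicate of igfbp1a. agt, the angiotensin precursor, stood at 1873 and 1426 CPM. Growth factor transcripts were far lower, at 63.2 and 76.5 CPM for igf2b and 55.7 and 69.6 CPM for igf2a. Vitellogenins, the yolk precursors that the liver of an adult female secretes, had 0 of 7 rows detected, and 2 of the rows had no count in either replicate.

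Of 37 rows of the mitochondrial genome, 21 had no count and 13 were protein genes. The protein genes took 11.3% of counts in replicate 1 and 9.32% in replicate 2. After mt-co1, the oxidase subunit genes mt-co2 (18088 and 14156 CPM) and mt-co3 (12553 and 12732 CPM) were highest, then the cytochrome b gene mt-cyb (9538 and 8532 CPM). Of the 13 genes, 11 were higher in replicate 1, as were 68.7% of all genes with at least 20 counts over both replicates. The exceptions were mt-co3 and mt-atp8 (21.4 and 29.9 CPM). A further row of the mitochondrial genome, for which the table and the gene name list give no symbol, went the other way, at 16313 and 20263 CPM, and was the fifth most abundant row of all.

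Protein synthesis was spread evenly in comparison. Cytosolic ribosomal protein genes took 5.22% and 5.56%, and 20 genes were needed for 50% of the class. Of 83 rows, 77 had a mean of at least 100 CPM, and those ranged from 118 to 2747 CPM with a median of 534. rps2 was highest at 2669 and 2826 CPM, then rpl4 at 2198 and 2431 CPM and rplp0 at 2108 and 2327 CPM. rpl9 stood at 0.465 and 0.733 CPM, although it encodes a subunit that ribosomes need, and the reason was not tested. Of the 81 ribosomal rows at a mean of 1 CPM or more, only 14 were higher in replicate 1. Of all genes with at least 20 counts over both replicates, 68.7% were. These genes were not matched to the ribosomal rows by level, and most of them lay below 100 CPM. Among translation factors, which took 2.69% and 2.75%, eef1a1l1, which brings aminoacyl-tRNA to the ribosome, stood at 9845 and 10501 CPM and eef2b, which moves the ribosome along, at 7263 and 7551 CPM.

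Genes for sugar use and synthesis took 4.76% and 5.58% of counts. The glycolytic genes gapdh (6548 and 7416 CPM) and pklr, the pyruvate kinase of liver (5747 and 7379 CPM), were abundant. Genes that act in the release of glucose were also among the abundant ones. pck1, the entry enzyme of gluconeogenesis, stood at 2147 and 2827 CPM, the glucose 6-phosphatase gene g6pca.2 at 981 and 1358 CPM, fbp1b, a fructose bisphosphatase gene, at 971 and 1140 CPM, and pygl, the glycogen phosphorylase of liver, at 1293 and 1738 CPM. gys2, which builds glycogen, stood at 987 and 1085 CPM. These enzymes were higher in replicate 2, while g6pca.1 stood at 216 and 185 CPM. Over the class 38 genes were higher in replicate 1 and 36 in replicate 2. Among all genes with at least 20 counts over both replicates, 68.7% were higher in replicate 1. slc2a2, the glucose transporter of hepatocytes, stood at 617 and 672 CPM and made up 93.4% and 94.2% of the counts of all glucose transporter genes.

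Amino acid breakdown took 6.58% and 6.91%, and 116 of 131 rows were detected. bhmt, which passes a methyl group from betaine to homocysteine, led at 7681 and 8859 CPM. tat, the tyrosine aminotransferase that glucocorticoids and glucagon induce in mammalian liver, stood at 6749 and 6418 CPM, and hpda, the next enzyme of tyrosine breakdown, at 3997 and 4653 CPM. agxtb, which converts glyoxylate to glycine, was nearly the same in both replicates at 5954 and 5986 CPM. The hydrolase ahcy of the methionine cycle stood at 3840 and 4104 CPM, glud1b, a glutamate dehydrogenase gene, at 3854 and 3878 CPM, and pah, which turns phenylalanine into tyrosine, at 2876 and 2461 CPM. cps1, the entry enzyme of the mammalian urea cycle, had no count in either replicate. By a limit of 3 counts per library, this allows at most 0.155 CPM in replicate 1 and 0.200 CPM in replicate 2. The limit takes counts as independent single reads, which low counts here were not, so it may be too low.

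As the groups were drawn here, with 266 and 362 rows, lipid metabolism outside the plasma lipoproteins took a smaller share than detoxification. The detoxification group also held cyp24a1 and uox, which break down vitamin D and urate. fabp10a, the fatty acid and bile acid binding protein of the fish hepatocyte, stood at 7748 and 8168 CPM and made up 68.2% of the class of fatty acid binding and uptake genes (1.13% and 1.203% of counts). slc27a2a (ENSDARG00000036237), which encodes the fatty acid transporter that Lipofermata inhibits, stood at 1035 and 1235 CPM (1135 ± 141, SD, n = 2) and ranked 112 of all rows. It took 85.4% and 90.05% of the counts of its family. slc27a1b, a related transporter gene, stood at 152 and 115 CPM, and slc27a1a at 17.9 and 16.7 CPM. slc27a6 stood at 5.83 and 4.53 CPM and slc27a4 at 0.723 and 0.0667 CPM. Another fatty acid receptor, cd36, stood at 1.19 and 1.87 CPM. No row named slc27a2b or slc16a6a was found, and slc16a6b, a monocarboxylate carrier gene, stood at 7.12 and 8.53 CPM. scp2a, a sterol carrier and peroxisomal thiolase gene, stood at 877 and 1093 CPM, and ldlra, a receptor for low-density lipoprotein, at 409 and 419 CPM.

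Lipid droplet and lipase genes took 0.295% and 0.307%, of which lpl, the lipoprotein lipase gene, was 69.3%, at 1986 and 2190 CPM. The droplet coat gene plin2 stood at only 1.497 and 1.467 CPM, plin1 at 0.103 CPM in replicate 1 and without a count in replicate 2, and plin6 was without a count in both. pnpla2, the lipase that opens stored triglyceride, stood at 105 and 108 CPM, and cidec, a protein of droplet growth, at 63.4 and 42.1 CPM. In fatty acid and triglyceride synthesis (0.297% and 0.314%), lpin1 was highest at 1116 and 1252 CPM. It encodes a lipin, which makes diacylglycerol and, in mammals, also acts with fasting regulators in the nucleus. lpin2 stood at 573 and 548 CPM and dgat2, which makes triglyceride, at 160 and 229 CPM. fasn, the fatty acid synthase, stood at 87.5 and 71.5 CPM.

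Fatty acid oxidation, peroxisomes and ketone bodies took 0.415% and 0.401%, spread over 8 genes for 50% of the class. acat1, which joins or splits acetoacetyl-CoA, led at 484 and 494 CPM, followed by oxct1b at 357 and 279 CPM, an enzyme that uses ketone bodies and is scarce in mammalian hepatocytes. phyh, of peroxisomal oxidation of branched fatty acids, stood at 296 and 325 CPM. The gate of mitochondrial fatty acid entry was held by cpt1aa at 41.3 and 37.2 CPM and cpt1ab at 38.6 and 17.9 CPM. The order of these copies was the same in both replicates, but cpt1ab differed 2.15-fold between them, more than most genes of its level. Cholesterol synthesis and bile acid genes took 0.420% and 0.403%. Bile acid export and synthesis stood highest there, with abcb11b, the bile salt export pump, at 1358 and 1212 CPM and cyp7a1, the rate-limiting enzyme of bile acid synthesis, at 474 and 568 CPM.

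Detoxification was led by ces2a, a carboxylesterase gene, at 4298 and 4522 CPM. The group also held uox, the urate oxidase that fish keep and humans have lost, at 2099 and 2317 CPM. Cytochromes P450 took 1.103% and 1.078% of counts, and 46 of 81 rows were detected. The leading gene was cyp24a1, which breaks down active vitamin D, at 2974 and 3002 CPM (2988 ± 20.2, SD, n = 2), or 27.4% of the class. cyp3a65, a relative of the main drug-oxidizing enzyme of human liver, followed at 2188 and 2320 CPM, and cyp1a, a target of the aryl hydrocarbon receptor, at 746 and 596 CPM. cyp2ad2, the highest of the large second family, stood at 649 and 679 CPM.

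Conjugation enzymes were low, at 0.227% and 0.239% of counts. Of their 83 rows 8 were needed for 50% of the class, and the largest held 9.17%. gstt1a, a glutathione transferase gene, stood at 188 and 239 CPM, ugt1a1, which conjugates bilirubin, at 199 and 228 CPM, and sult2st2, a sulfotransferase gene, at 98.2 and 121 CPM. Among transporters, slco1d1, an uptake carrier of organic anions, stood at 1420 and 1419 CPM and abcc2, which exports conjugates into bile, at 816 and 874 CPM. Antioxidant genes took 0.493% and 0.479%, with gpx4a, which removes lipid peroxides, at 1086 and 1022 CPM, prdx2, a peroxiredoxin gene, at 616 and 737 CPM, and cat, the catalase gene, at 521 and 568 CPM. nqo1, a quinone reductase controlled by the regulator of antioxidant genes, differed more, at 712 and 418 CPM.

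Nuclear genes for mitochondrial proteins were dominated by ucp1, which encodes a carrier that lets protons leak across the inner membrane and is known in mammals from brown fat. It stood at 16353 and 19429 CPM (17891 ± 2175, SD, n = 2), ranked 6 of all rows and made up 46.7% of the counts of its group of 323 rows. ucp2 stood at 118 and 110 CPM. slc25a5, an adenine nucleotide carrier gene, stood at 3420 and 3251 CPM. The tricarboxylic acid cycle and pyruvate genes took 0.573% and 0.621%. The cytosolic malate dehydrogenase gene mdh1aa, at 2095 and 2548 CPM, was 38.9% of the class. The shares of this class and of its group therefore include a gene whose product is not mitochondrial. The nuclear genes of the respiratory chain took 0.592% and 0.578%, against 11.3% and 9.32% for the protein genes of the mitochondrial genome. atp5f1b, a subunit of ATP synthase, was highest among them at 880 and 913 CPM. Mitochondrial ribosomal proteins took 0.0709% and 0.0639% although all 74 rows were detected.

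Of the transcription factor lists, 24 of 26 hepatocyte factors, 38 of 40 nuclear receptors and 32 of 32 fasting and nutrient regulators were detected. Over all rows it was 12541 of 32058. The lists were chosen with earlier results of these data known, and detection asks only for 1 CPM in both replicates. These counts therefore say little about how strongly the listed genes were expressed. On the list of hepatocyte factors, cebpd stood highest at 485 and 592 CPM, then xbp1, a regulator of the secretory pathway, at 295 and 261 CPM, and cebpb at 142 and 102.1 CPM. hnf4a, a central regulator of hepatocyte genes, stood at 92.6 and 118 CPM and prox1a, needed for hepatocyte fate, at 83.6 and 123.4 CPM. onecutl differed 2.64-fold between the replicates, at 56.9 and 150 CPM. The list of nuclear receptors was led by nr1h5 at 190 and 167 CPM and nr1h3, a sensor of oxysterols, at 131 and 109 CPM. nr5a5, a nuclear receptor gene that the list did not hold and that was noticed after its values were seen, stood higher, at 584 and 640 CPM. The bile acid receptor nr1h4 stood at 26.3 and 23.7 CPM, and the fatty acid sensors pparaa and pparab at 12.1 and 14.1 CPM and at 4.70 and 5.07 CPM. pparda, of the same family, stood at 86.5 and 78.8 CPM. The glucocorticoid receptor nr3c1 was nearly equal in both, at 42.2 and 42.1 CPM.

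Of the fasting and nutrient regulators, klf15, a factor that in mammals drives amino acid breakdown and gluconeogenesis in fasting, stood highest at 240 and 284 CPM. nfe2l2a, the regulator of antioxidant genes, followed at 219 and 193 CPM, then foxo1a, which insulin keeps out of the nucleus, at 165 and 145 CPM, and trib3, a stress-induced pseudokinase, at 137 and 161 CPM. mlxipl, the factor that responds to glucose, stood at 8.47 and 11.5 CPM, and srebf1, which drives lipid synthesis, at 43.4 and 50.7 CPM.

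Paralog use was examined in 30 gene families and over all a and b pairs. These shares are of counts and not of molecules, and because the handling of reads that fit several genes is not stated, near-identical copies such as the c3a genes in tandem could have lost or exchanged reads. In 29 of the 30 families the largest member was the same in both replicates, the exception being the vitellogenins at close to 0. A single member held at least 90% of the family's counts in 8 families, 50% to 90% in 15, and less than 50% in 7. Among the first, eef1a1l1 held 99.7% and 99.7% of elongation factor counts, eno3 99.2% and 99.4% of enolase counts, and fabp10a 96.4% and 96.4% of the counts of fatty acid binding proteins. fabp1b.1, of the subfamily that serves as the mammalian liver form, stood at 0.413 and 0.133 CPM. eno3 is the enolase known from muscle in mammals, and here it stood at 2119 and 2111 CPM while eno1a stood at 16.7 and 11.5 CPM.

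Several families of the detoxification system were divided among many members. cyp2ad2 held 24.7% and 25.4% of the counts of cytochromes P450 family 2, of whose 43 rows 27 were detected, and sult2st2 held 24.03% and 29.2% of sulfotransferase counts. The glutathione transferases and the glucuronosyltransferases had top members with 27.4% and 30.2% and with 31.3% and 34.2%. In others 1 member held most of the counts, with 88.2% and 90.7% for cyp3a65 in the third family of P450 enzymes, 96.3% and 96.0% for cyp8b1 in family 8B and 74.1% and 77.4% for prdx2 among peroxiredoxins. In the growth factor binding family, igfbp1a held 48.0% and 49.0%, with igfbp1b close behind.

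Of 2714 symbols that occur with both an a and a b ending, 1525 pairs reached 5 CPM over the pair. A single paralog held at least 90% of the counts in both replicates in 599 of them, or 39.3%, and it was the a copy in 335 pairs and the b copy in 264. The larger copy held a median of 84.4% of the counts. In 207 pairs the split lay between 40% and 60%. The larger copy was the same in both replicates in all but 63 pairs, and the share of the a copy differed between replicates by a median of 2.32 percentage points. Among the 48 pairs at 500 CPM or more, 33 had a dominant copy (68.8%). The share was lower but without a steady trend below that level. It was 82 of 188 (43.6%) from 100 to 500 CPM, 239 of 691 (34.6%) from 20 to 100 CPM and 245 of 598 (41.0%) from 5 to 20 CPM.

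The 10 pairs with the most counts show both patterns. apoa1b stood at 42066 and 49108 CPM and apoa1a at 170 and 159 CPM, so that the a copy held 0.402% and 0.323%. fn1b, fabp10a, ces2a, hpda, glud1b and pnp5a each held over 90% of their pair. fabp10b had 0.103 CPM in replicate 1 and no count in replicate 2. hpdb stood at 1.14 and 2.40 CPM beside hpda. glud1a stood at 253 and 273 CPM, 6.15% and 6.58% of its pair. agxtb and agxta were less unequal, with 15.4% and 14.99% in agxta. igfbp1a held 50.95% and 52.7% of its pair, an almost even split. itih3a held 28.9% and 27.5% against itih3b. Pairs were matched by symbol, so zgc:112265, named itih3b.2 in the gene name table, was not counted in this pair. That row stood at 6617 and 7086 CPM, far above itih3a at 685 and 704 CPM.

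**Figure D3:**
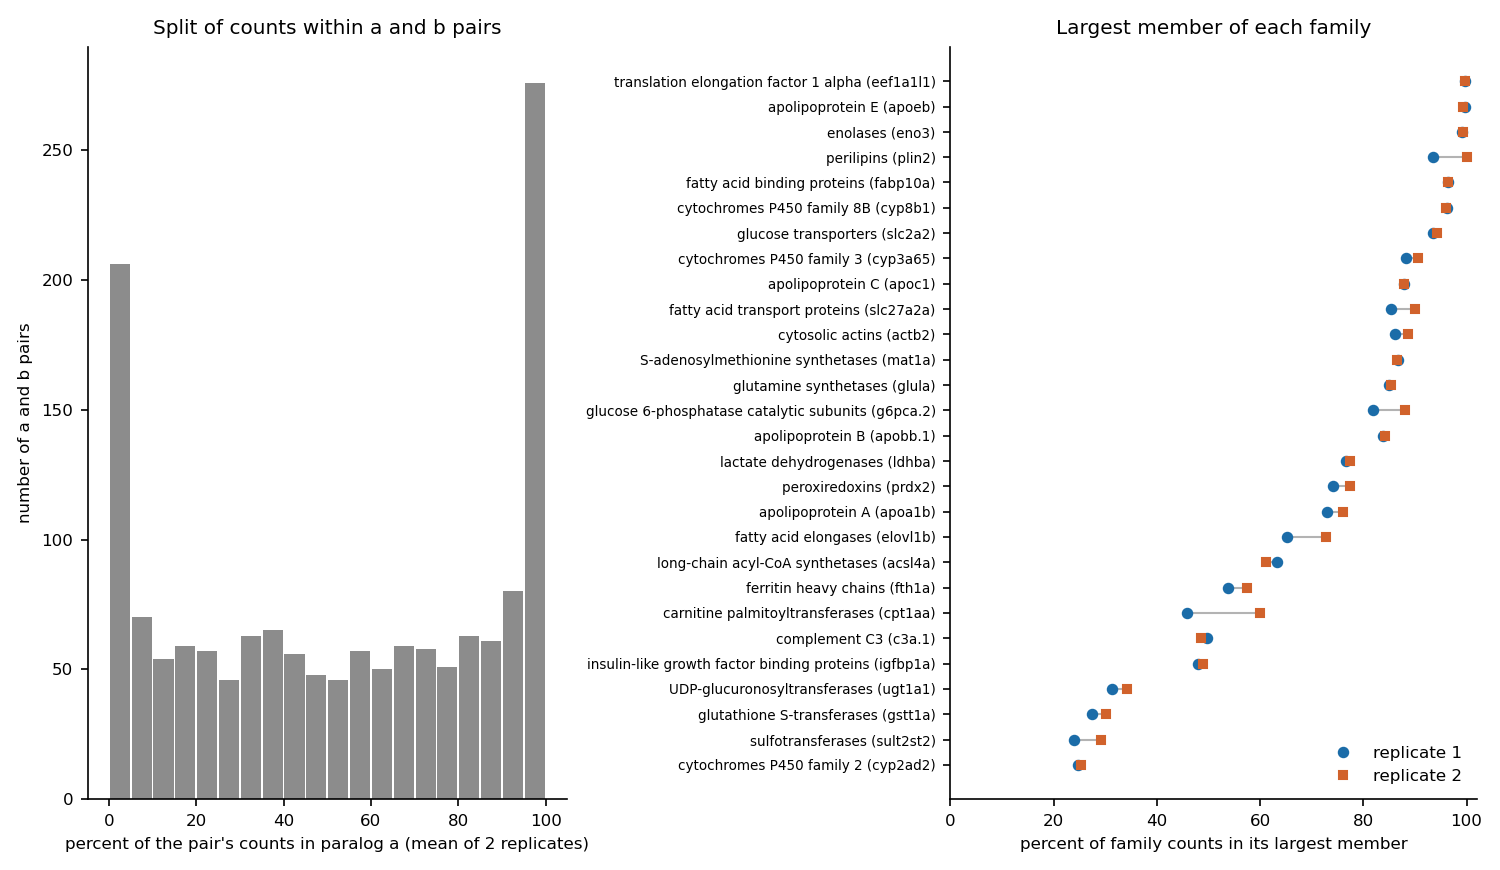
Left, number of a and b pairs at 5 CPM or more by the percent of the pair's counts in the a copy, in bins of 5 percentage points, where the outermost bins hold the most pairs. Right, percent of family counts in the largest member for 28 families (vitellogenins and another family left out), with a circle for replicate 1 and a square for replicate 2, from eef1a1l1 at 99.7% down to cyp2ad2 at 24.7% and 25.4%.

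Of 20 hepatocyte markers 19 were found and 18 detected, and cps1 had no count in either replicate. Over all rows 12541 of 32058 were detected. The list was chosen with earlier results of these data known, so this count is no test of the tissue label. The hepatocyte markers summed to 65279 CPM in replicate 1 and 66979 CPM in replicate 2. The 16 lists of markers for other cell types held 277 genes and took 1.04% of counts in replicate 1 (95% interval 1.04 to 1.05) and 1.51% in replicate 2 (1.503 to 1.516). Without the exocrine pancreas list the share was 0.563% and 0.564%. That share still holds cpa5, described below, and sums lists that differed in either direction. Its match between replicates therefore does not mean that each list matched. A list's sum depends on how many genes it holds and on their lengths, so the sums below describe each list between the replicates and do not rank cell types by number.

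Exocrine pancreas markers were the highest of these lists and differed between the replicates. Their sum was 4801 CPM in replicate 1 and 9455 CPM in replicate 2, a ratio of 1.97. prss1, a trypsinogen gene, stood at 758 and 1564 CPM, ctrb1, a chymotrypsinogen gene, at 607 and 1317 CPM, and prss59.1 at 548 and 1108 CPM. Of the 24 markers with at least 20 counts, 23 were higher in replicate 2, while 68.7% of all such genes were higher in replicate 1. cpa5, which had been listed with the neutrophils, was also higher in replicate 2, at 324 and 601 CPM. Without it the neutrophil list summed to 337 and 227 CPM, of which lect2l was 240 and 165 CPM and mpx, the myeloperoxidase gene, 29.7 and 22.7 CPM. The lysozyme gene lyz was at 0 in both.

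All 30 markers of endothelium were found and 27 were detected, while over all rows it was 12541 of 32058. The list was chosen with earlier results of these data known, so this count says little about level. The endothelial markers summed to 1122 and 865 CPM. kdrl, a receptor for vascular endothelial growth factor, stood at 311 and 263 CPM, cdh5, the cadherin of endothelial junctions, at 151 and 102.2 CPM, and tie1 at 112 and 94.9 CPM. Of the 30 genes, 29 were higher in replicate 1, and after TMM scaling 24 were. Stellate cell and fibroblast markers summed to 606 and 730 CPM, led by the collagen genes col6a1 (140 and 181 CPM) and col1a1b (77.8 and 99.2 CPM). Of 20 with at least 20 counts, 11 were higher in replicate 1, and 8 after TMM scaling. Over all genes with at least 20 counts, 68.7% were higher in replicate 1, and 51% after TMM scaling. Bile duct markers summed to 1905 and 1895 CPM, but anxa4 made up 67.5% of the sum at 1266 and 1299 CPM. epcam, an epithelial adhesion gene, stood at 61.2 and 32.3 CPM, sox9b, a biliary transcription factor, at 28.8 and 26.9 CPM, and cftr, the chloride channel of ducts, at 0.826 and 0.400 CPM.

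Macrophage markers were low and set the replicates apart. Their sum was 150 CPM in replicate 1 and 40.6 CPM in replicate 2, a ratio of 3.70. All 18 markers with at least 20 counts were higher in replicate 1, also after TMM scaling, against 68.7% and 51% of all such genes. marco, a scavenger receptor gene, stood at 22.4 and 3.40 CPM, and csf1ra, the receptor for a macrophage growth factor, at 13.4 and 2.07 CPM. mpeg1.1, a perforin gene whose reporter line the paper used to image macrophages, stood at 8.47 and 2.27 CPM. Lymphocyte markers summed to 4.44 and 2.80 CPM, and none of the 13 found was detected in both replicates.

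Markers of heart muscle, skeletal muscle and endocrine pancreas were also unequal, while those of the intestine, given below, were nearly equal. Few of the unequal ones were detected in both replicates, with 1 of 6, 0 of 27 and 2 of 10 markers found. Heart muscle markers summed to 43.4 and 3.13 CPM. The atrial myosin gene myh6 stood at 17.1 and 2.47 CPM, the light chain gene myl7 at 8.26 and 0.667 CPM, and nppa and tnnt2a at 9.09 and 8.47 CPM in replicate 1 with no count in replicate 2. Against a limit of 3 counts in replicate 2, these are at least 45.4-fold and 42.3-fold higher in replicate 1. That limit takes counts as independent single reads, which low counts here were not, so the true minimum ratios could be smaller. Skeletal muscle markers summed to 27.2 and 10.3 CPM, and those of the endocrine pancreas to 17.8 and 5.40 CPM, with the glucagon genes gcga (6.71 and 2.33 CPM) and gcgb (6.76 and 2.40 CPM) at the top.

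Red cell transcripts were scarce, and 5 of the 23 genes found were at 0. rhag made up 90.8% of the erythroid list, at 313 and 393 CPM, and the globin gene hbae3 stood at 8.26 and 21.6 CPM. Of 11 erythroid markers with at least 20 counts, 9 were higher in replicate 2, while 68.7% of all such genes were higher in replicate 1. Intestinal markers summed to 159 and 152 CPM, of which the water channel gene aqp8a.1 was 115 and 109 CPM, and the enterocyte gene fabp2 6.71 and 4.13 CPM. Epidermal markers summed to 568 and 638 CPM, almost all from krt4 (276 and 290 CPM) and krt91 (223 and 275 CPM), while the basal factor tp63 stood at 2.07 and 2.40 CPM. Neuronal and glial markers summed to 11.2 and 10.3 CPM, thrombocyte markers to 16.8 and 14.5 CPM, and eye markers to 0.774 and 1.2002 CPM, with 16 of 20 eye genes at 0. Whether these transcripts came from cells within the liver or from tissue taken along with it was not tested.

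**Figure D4:**
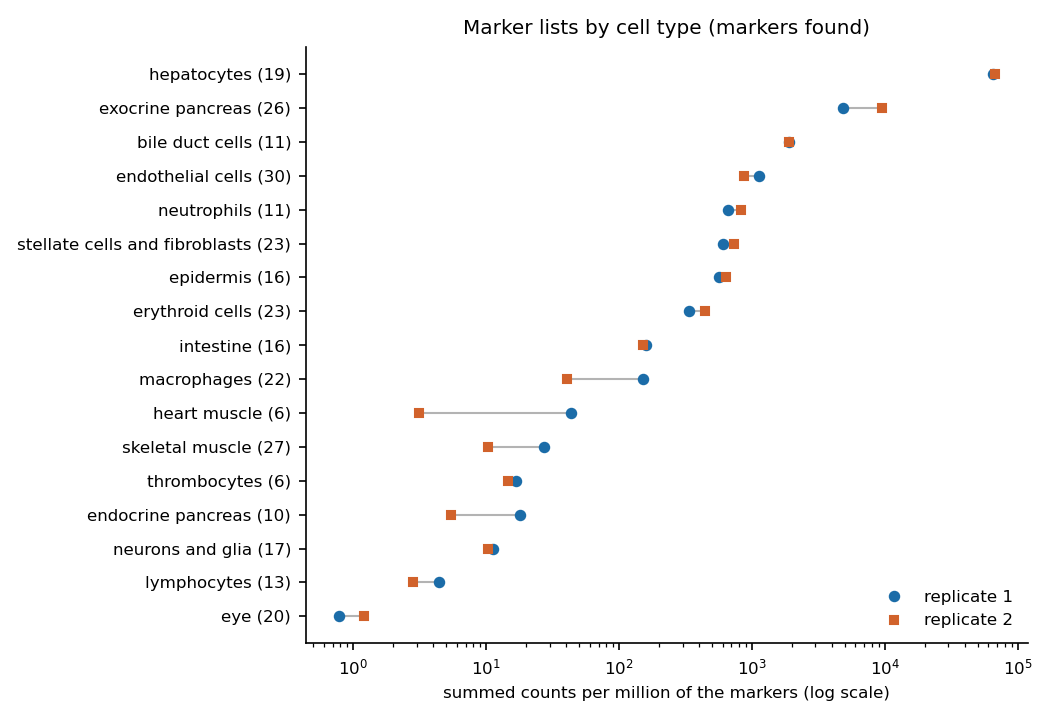
Summed CPM of each marker list on a log axis, with the number of markers found in parentheses, a circle for replicate 1 and a square for replicate 2. Hepatocyte markers stand at 65279 and 66979 CPM, and the widest gaps are those of heart muscle, macrophages, endocrine pancreas and skeletal muscle, all higher in replicate 1.

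Of 3957 genes with a mean of at least 20 CPM, 21 were over 2-fold higher in replicate 1 and 18 over 2-fold higher in replicate 2. In replicate 1 the largest ratio was that of ctsc, a lysosomal protease gene, at 70.5 and 16.7 CPM (4.22-fold). pdia4, a protein disulfide isomerase gene of the endoplasmic reticulum, stood at 61.5 and 20.003 CPM, sqstm1, an autophagy receptor gene, at 44.1 and 14.7 CPM, calr3b, a calreticulin gene, at 79.9 and 31.7 CPM, and serpina7, a thyroxine binding globulin gene, at 119 and 45.9 CPM. apoeb, si:ch211-212c13.8, BX663503.3, cndp2 and abcf1 completed the 10, with ratios from 2.37 to 2.76. In replicate 2 the largest ratio was that of nr1d2a, a repressor of the circadian clock, at 17.7 and 71.1 CPM (4.01-fold), followed by si:dkey-22f5.9 (24.2 and 87.2 CPM), nfil3-6, a factor of clock output (43.8 and 143 CPM), mycb, a growth regulator (34.1 and 101.1 CPM), and onecutl. arl5c, enc3 and the pancreas genes cpb1, cpa1 and ctrb1 completed that set, with ratios from 2.15 to 2.54.

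Lists drawn up after these genes had been seen, and which hold some of them, are a description only. All 21 genes of endoplasmic reticulum chaperones and their regulators were higher in replicate 1, with a median log2 ratio of -0.75 for replicate 2 against replicate 1, and so were all 22 lysosomal genes, with a median of -0.58. hspa5, the main chaperone of the endoplasmic reticulum, stood at 510 and 288 CPM, hsp90b1 at 234 and 117 CPM, and the lysosomal protease genes lgmn and ctsba at 197 and 84.1 CPM and at 248 and 143 CPM. Beside these stand the macrophage markers, at 150 and 40.6 CPM, which were also higher in replicate 1, and their part in this was not tested. Of the class of endoplasmic reticulum folding and translocation genes, set by symbol, 73 of 82 were higher in replicate 1, and of lysosomal proteases and autophagy genes 53 of 55. After TMM scaling 19 of the 21 chaperone genes and all 22 lysosomal genes of the lists were still higher in replicate 1. Of 31 clock genes with at least 20 counts, 14 were higher in replicate 1, with a median of 0.02, and after TMM scaling it was 4 of 31. Over all genes with at least 20 counts these shares were 68.7% and 51%. The median over all genes at a mean of 1 CPM or more was -0.19. Among the clock genes, nr1d2a, nfil3-6 and nr1d1 (53.4 and 106 CPM) stood apart from per3 (130 and 131 CPM), cry1a (74.5 and 73.3 CPM) and clockb (20.5 and 23.3 CPM), which hardly differed. The hour at which each pool was collected is not given in the sources used here.

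**Figure D5:**
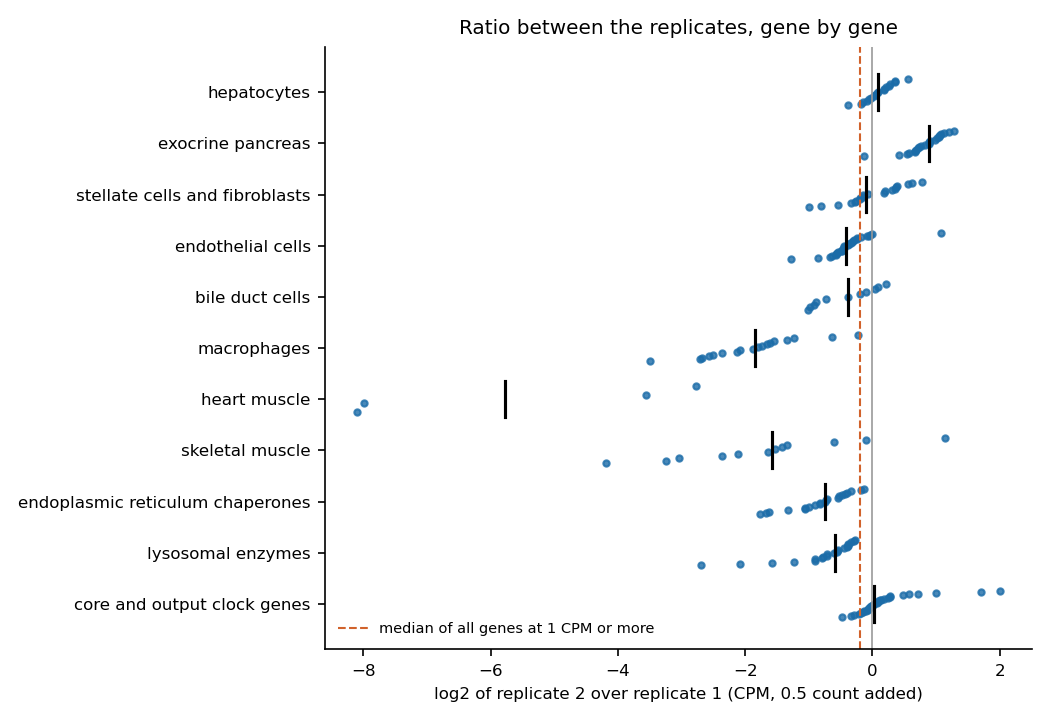
Log2 ratio of replicate 2 over replicate 1 for each gene with at least 20 counts (1 point per gene, 0.5 count added), with a black bar at the median of the list and a dashed line at the median of all genes, -0.19. Pancreas markers lie to the right, macrophage, heart, chaperone and lysosomal genes to the left, and clock genes around 0 with a tail to the right.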

How the data were processed

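RNA was measured in 2 vehicle libraries, each from pooled livers of 30 larvae, and the 2 Lipofermata columns were not used here. The authors deposited whole-number counts of reads per gene, not normalized, made with HISAT2 and featureCounts on GRCz11 as their processing notes name them. For the versions, the annotation release, strandedness and multiply mapped reads, the setting is not given in the sources used here. There were 0 columns of no sample, 28 rows had no name, and 28988 of 32058 rows matched the reference gene name table. A name occurred on several rows in 530 cases, and for listed genes the row with the most counts was used.

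CPM, shares, 95% Wilson intervals, means and SDs were computed with Python 3.11.15, pandas 2.3.3 and scipy 1.17.1, and figures with matplotlib 3.10.9. TMM factors came from edgeR 4.0.16 and size factors from DESeq2 1.42.0 in R 4.3.3. The depth was 19368695 and 14997821 counts. With a single group there was no test. Class shares were recovered from data simulated with known shares, which checks the summing and not the assignment of genes to classes.

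Genes were classed by symbol pattern, and 44 were corrected by gene name after their values were seen. Pairs were symbols that end in a or b, without 158 names whose letters mark separate genes. Dominance was planned per transcript length but was computed on counts, since no lengths were at hand, and a ranking per length and a search for promoter motifs were not run. Genes were named by rule: the 30 most abundant, the leading members of each class, list and family, the 10 largest replicate ratios in each direction, the 10 largest pairs, fatty acid transporters and the EGFP reporter. Other genes named, and the lists of chaperone, lysosomal, clock, cell cycle, glucocorticoid responsive and vitamin D genes, were chosen after their values were seen. All members and lists were chosen with earlier results of these data known. Alternatives covered the total, the detection level, the scaling, the pair thresholds, the marker lists and each replicate alone. Values of 2 genes, and the figure entries that show them, are not reported here.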

Additional observations from a re-analysis of the deposited data

Results flagged for a closer look

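A row for the EGFP reporter, which belongs to no class or list of the report, stood above the limit that a count of 0 allows. It held 761 CPM in replicate 1 and 580 CPM in replicate 2. That limit, with counts taken as independent single reads, is 0.155 and 0.200 CPM. The label gives the genotype of these larvae as AB and names no reporter. The paper imaged livers of the reporter line Tg(fabp10a:GFP) after the same vehicle and Lipofermata treatment. The paper gives AB as the strain of both its wild-type and its transgenic fish. For the sequenced livers it names no line and refers to the protocol of earlier work. The source of these reads was not tested.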

How the results depend on the processing

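No paired analysis was possible because only 1 group was described and no value came from a test. With each replicate alone the share of the top 10 genes ranged from 23.9% to 25.3%. With the mitochondrial genome taken out of the total, the top 10 genes held 21.9%, secreted plasma proteins 28.1%, sugar and amino acid metabolism 13.6%, protein synthesis 9.23%, nuclear mitochondrial genes 4.36%, detoxification 4.10%, lipid metabolism 2.95%, protein quality control 2.86%, nuclear and cytoskeletal genes 1.51% and ferritins 0.0897%. The group shares are larger because the total is smaller, and the share of the top 10 is smaller because it then holds other genes. At 5 CPM 8146 genes were detected, and 20569 had a count in either replicate. Without the most abundant marker of each list, other cell types held 0.861%. In alternatives chosen after seeing the data, detoxification took 4.34% with classes by symbol pattern alone. Of 65 alternatives for the 16 single marker lists, 18 moved the share by more than the replicate SD. The alternatives that took a single replicate alone could not do so, since with 2 replicates each lies within the SD of their mean. Division by gene length and promoter motifs were not run. Depth limits statements on genes near 3 counts, or 0.155 and 0.200 CPM.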

Other observations

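Several abundant genes belonged to no class. pnp5a, a purine nucleoside phosphorylase gene, stood at 3309 and 3377 CPM, and slc38a4, an amino acid transporter gene, at 1981 and 2385 CPM. The keratin genes krt8 (2068 and 1945 CPM) and krt18a.1 (1236 and 1109 CPM), whose products form the filaments of hepatocytes, were of like level. hdlbpa, which encodes the RNA binding protein vigilin, stood at 1881 and 1842 CPM, and nid1a, a basement membrane gene, at 1217 and 1425 CPM. CR383676.2, named malat1 in the gene name table and thus a nuclear noncoding RNA, stood at 2719 and 2004 CPM.

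Lists drawn up after the values were seen gave these levels. The 15 genes known to respond to glucocorticoids summed to 16461 and 16805 CPM, of which tat was 39.6%. The 7 vitamin D genes summed to 5268 and 5635 CPM, led by cyp24a1 with 54.8%, and all 6 with at least 20 counts were higher in replicate 2. The 18 cell cycle genes summed to 179.9 and 132 CPM, and 16 of the 17 with at least 20 counts were higher in replicate 1. After TMM scaling 15 of these 17 were. Over all genes with at least 20 counts, 68.7% were higher in replicate 1, and 51% after TMM scaling. The 10 genes of ketone body synthesis and use summed to 1160 and 1109 CPM.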
